A study of Canis lupus familiaris with 15 samples.

Results

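The 3 tumour biopsies from dogs with drug-resistant lymphoma were compared with 2 skin biopsies across all genes on a canine expression array. The 3 biopsies came from the dogs MalcolmX, Jake and Dog Y, and the skins from MalcolmX and Rosco, so 5 of the 15 arrays of the series were compared. The labels name 4 biopsies of an original resistant lymphoma. The members were chosen by measured values: the biopsy of Rosco was left out because MS4A1, a B cell surface gene, lay near background there and genes of exocrine glands were high. Each sample was hybridised to 1 array in 1 colour, and the replicate of a group is a dog. The labels describe the MalcolmX and Jake samples as resistant tumours at first sampling. The Dog Y and Rosco samples carry that condition too, but their description says that they preceded treatment. No drug, dose, age or breed is given for any of these 5 samples. The labels call skin the control tissue. A lymph node without tumour was not analysed here, so differences between tumour and healthy tissue and differences between lymphoid tissue and skin cannot be told apart.

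B cell lymphoma is a tumour of B lymphocytes, which carry the surface protein encoded by MS4A1, receive survival signals from T cells through CD40, and present antigen on MHC class II molecules. Skin is built of keratinocytes over a dermis of fibroblasts and vessels, with fat and, in places, muscle below. Whole-tissue RNA mixes all of these cells, and a lower level of a gene can come from fewer cells of a type or from less RNA per cell; here these cannot be told apart.

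Levels are log2 signals minus the 75th percentile of the array, so that 0 is the signal at that percentile. They can be compared between arrays for 1 probe but not between genes. MS4A1 stood at 3.18 in the MalcolmX biopsy, 2.92 in the Jake biopsy and 2.68 in the Dog Y biopsy, against 0.84 in the MalcolmX skin and -8.04 in the Rosco skin. The biopsies were all higher than both skins, and the 2 skins lay far apart. In the left-out Rosco biopsy MS4A1 was -7.16 and not above background. CD40, the receptor through which T cells stimulate B cells, stood at 4.84, 4.48 and 5.10 in the 3 biopsies and at 2.27 and -0.90 in the MalcolmX and Rosco skins. KRT1, a keratin of the upper epidermis, was -7.65, -8.13 and -8.02 in the biopsies, where it was never above background, and 5.36 and 8.26 in the skins. These 3 markers therefore separated the groups without overlap, in part because the choice of members fixed it.

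The name given to the biopsies rested on few genes. Of the B cell genes listed for this work only 4 were named on the array, and CD79A and PAX5 were not among them. BCL6, a transcriptional repressor of germinal centre B cells, was not well above background on any of the 3 biopsies (-6.21, -7.92 and -7.48) and stood at -3.07 and -3.03 in the skins. CD38, a surface enzyme of activated B cells and plasma cells, was -0.29, -1.16 and -1.46 in the biopsies and 0.61 and -0.86 in the skins, with overlap. Genes of exocrine glands, the other group behind the choice, were present in the skins as well: CA6, a secreted carbonic anhydrase, was -5.14, -7.11 and -3.29 in the biopsies, -1.75 and 1.45 in the skins, and 8.59 in the left-out biopsy. No test is given for MS4A1 and the gland genes, since they chose the arrays. BCL6 and CD38 did not choose them. BCL6 was called lower in the biopsies (-4.15, limma adjusted p = 0.0209), a target that entered the test through the skins, and CD38 was not called. The BCL6 call held in limma without the MalcolmX biopsy (adjusted p = 0.0309). It was lost with another background correction (0.518), with all 4 resistant biopsies (0.0632) and without the Dog Y biopsy (0.0547).

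**Figure D1:**
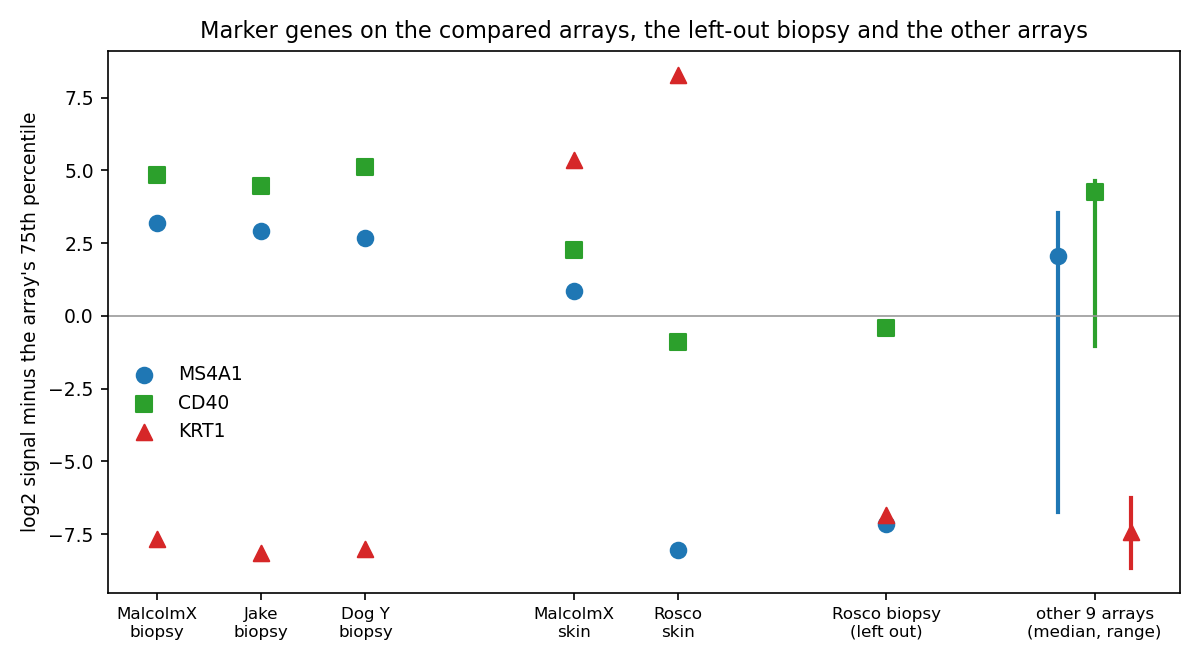
Levels of MS4A1, CD40 and KRT1 (log2 signal minus the 75th percentile of the array) on each compared array and on the left-out Rosco biopsy, with the median and range over the other 9 arrays at the right. MS4A1 and CD40 are high and KRT1 is low on the 3 biopsies, and the left-out biopsy has MS4A1 at -7.16.

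Over all 24445 targets tested, 3112 (12.7%) differed between the 3 biopsies and the 2 skins at an adjusted p under 0.05 in limma. Of these, 1489 (6.09%) were higher in the biopsies and 1623 (6.64%) were lower. The lower group held the larger differences: its median was -3.87 on the log2 scale, against 2.20 for the higher group. A difference of more than 5 was reached by 444 of the lower targets and 30 of the higher ones. Among the lower targets, 601 were not well above background on any of the 3 biopsies, and among the higher ones 139 were so on neither skin. The median of all tested targets lay 0.32 above 0, and differences are to be read relative to it. Of 1069 genes with a symbol, 83 were higher and 122 were lower (19.2%). Targets with an Ensembl transcript name and no symbol gave 1519 calls among 11192, and targets with other identifiers gave 1388 among 12184.

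These counts depended on single arrays. No target was called without the Jake biopsy, although 6773 had an unadjusted p under 0.05 in the same limma fit, and the lowest adjusted p was 0.072. Without the MalcolmX biopsy 1211 targets were called and without the Dog Y biopsy 615. Fits without the Rosco or the MalcolmX skin leave a single skin array, so their spread comes from the biopsies alone. The gap between the skins does not enter such fits, and their calls are not counted here. The median difference over tested targets was 0.30 without the Rosco skin and 0.23 without the MalcolmX skin. With all 4 resistant biopsies, the left-out one included, 103 of 23953 targets were called (0.43%). Those were 2 higher and 101 lower targets, and all 103 were also among the 3112. The call for each gene named here was lost without the Jake biopsy. A target could enter the test through the group in which it was high. Counts of lower or of higher genes among dim targets therefore partly follow from the filter. For some lists, counts over targets above background on all 5 arrays are given as well. They are to be read against that fit, which called 2332 of 20980 targets (11.1%), 1470 higher and 862 lower. Biopsies and skins shared each of the 2 slides. A slide term in the model gave 2271 calls. The slide that held the Jake and Dog Y biopsies and the MalcolmX skin has a single skin, so its calls are not counted. Another background correction (normexp) left 132 calls, of which 15.9% were higher in the biopsies, against 47.8% in the main comparison. Among genes with a symbol it left 0 calls higher and 19 lower. That share was 37.9% with scaling to the median, 63.0% among targets above background on all 5 arrays, and 39.6% among 1660 calls with no filter on dim targets.

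Over the tested targets, the 3 biopsies correlated with each other at 0.944 to 0.965 and with the skins at 0.721 to 0.851. The correlation of the 2 skins was 0.902. These values are descriptions over targets, which share arrays and are no replicates. The left-out biopsy correlated at 0.785 to 0.844 with the other 3 biopsies and at 0.859 and 0.890 with the skins. Of the 1489 targets that were higher in the 3 biopsies, 767 exceeded the skin mean in the left-out biopsy, and of the 1623 lower targets 1106 lay below it there. The same skins made the calls, and the share over all tested targets was not computed. No likeness between the left-out biopsy and the other 3 can be read from these counts.

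**Figure D2:**
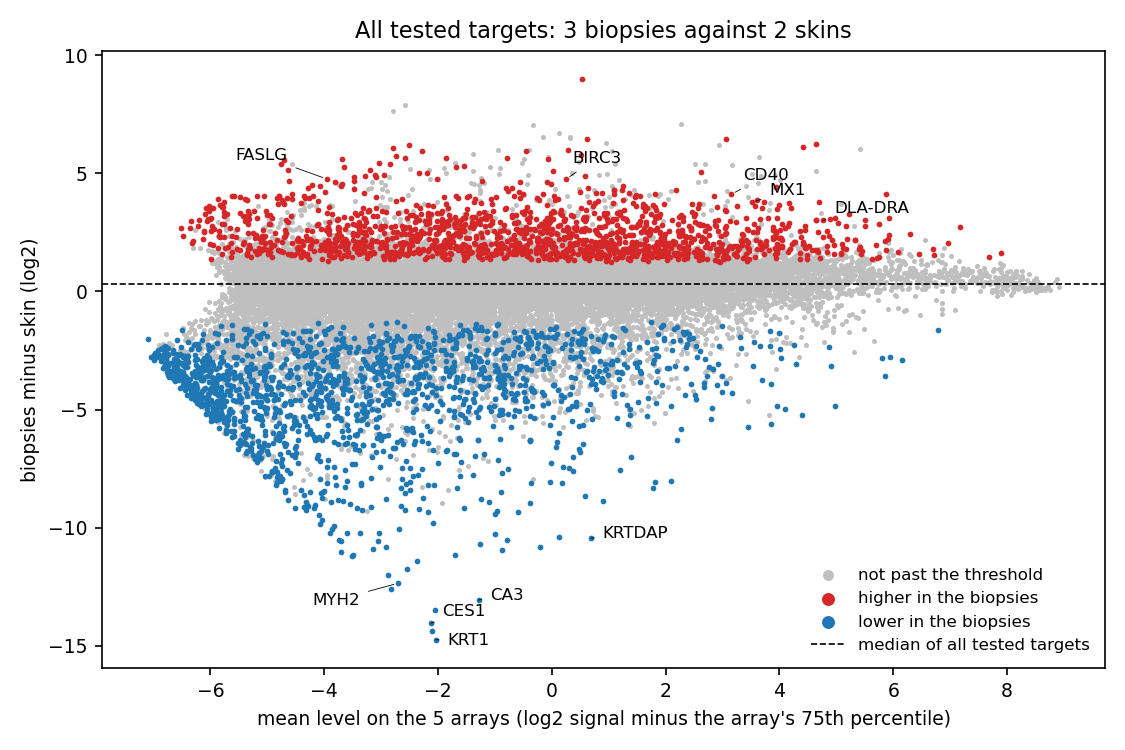
Difference between the 3 biopsies and the 2 skins (log2) against the mean level on the 5 arrays for each of the 24445 tested targets. Targets past the threshold are coloured by direction, and the dashed line is the median of all tested targets at 0.32. Lower targets reach -14.75, at KRT1, while the highest called gene with a symbol, FASLG, reaches 4.76.

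Genes of the epidermis were among those with the largest differences, and lower in the biopsies. Of 14 tested members of the keratinocyte list, 13 were called lower and 0 higher (6.64% of all targets were called lower), with a median difference of -7.87. Only 6 members were above background on all 5 arrays, and 5 of those were called in a fit of such targets, while the others passed the filter through the skins. KRT15, a keratin of basal and hair follicle keratinocytes, was -7.62, -8.03 and -7.89 in the biopsies of MalcolmX, Jake and Dog Y, not above background on any of them, and 4.92 and 8.12 in the MalcolmX and Rosco skins. That made it at least 5317-fold lower in the biopsies (limma adjusted p = 0.0070). KRT1 was at least 6504-fold lower (adjusted p = 0.0061). The fold is a lower bound, taken against the dimmest signal that was well above background on each biopsy array.

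Genes of the cornified layer and of cell contacts moved with the keratins. KRTDAP, a secreted protein of differentiating keratinocytes, was -3.02, -3.60 and -3.83 in the biopsies and 5.70 and 8.22 in the skins, a difference of -10.44 (SE 0.78, adjusted p = 0.0083). KRT2, a keratin of the late epidermis, differed by -8.93 (SE 1.22, adjusted p = 0.0209), and SPINK5, an inhibitor of skin proteases, by -8.07 (SE 0.86, adjusted p = 0.0152). The desmosomal cadherins DSG1 and DSG3 were at least 129-fold and at least 58.1-fold lower. KLK5, a protease of skin shedding, PKP1, a desmosomal plaque protein, and TGM1, the enzyme that crosslinks the cornified envelope, were called too, with differences between -5.92 and -4.16.

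KRT14, a keratin of basal cells, stayed well above background on every biopsy. It stood at 1.19, 1.15 and 1.11 there and at 6.0 and 7.79 in the skins, a difference of -5.74 (SE 0.57, adjusted p = 0.0134). CDH1, the cadherin of epithelial contacts, was the 1 tested member without a call (-4.10, SE 1.15, adjusted p = 0.0685). The skins were not alike: the median level of the list was -0.08 in the MalcolmX skin and 3.89 in the Rosco skin. Of the 13 calls, 9 held without the MalcolmX biopsy, 8 without the Dog Y biopsy, 5 with normexp, and 5 when the left-out biopsy was added. KRT19, a keratin of simple epithelia and glands, was -7.32, -7.97 and -7.75 in the 3 biopsies, 0.44 and 4.62 in the skins and 5.02 in the left-out biopsy. It belongs to the kind of gene that chose the arrays, and its call, counted in the list, is no support.

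**Figure D3:**
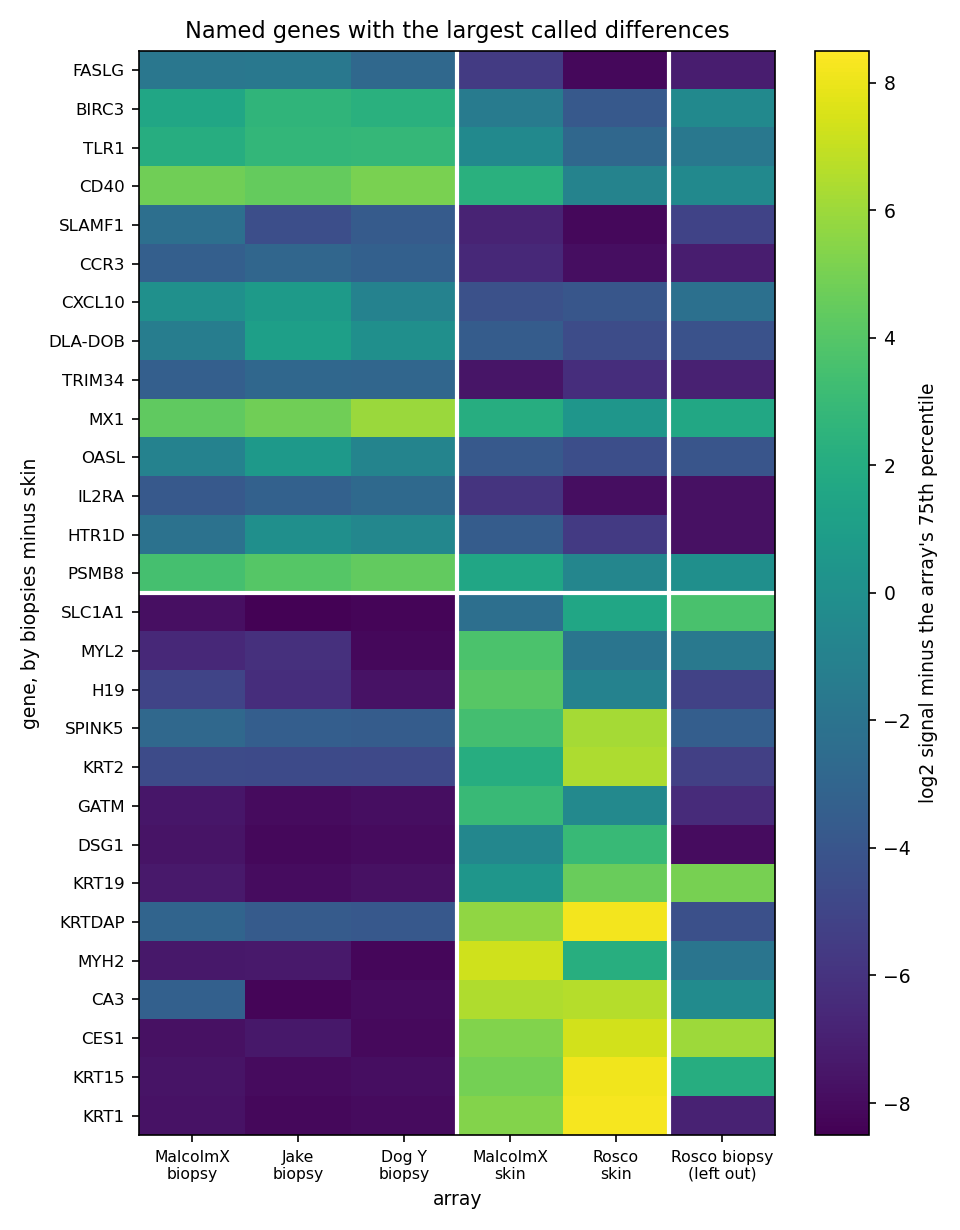
Levels (colour, log2 signal minus the 75th percentile of the array) of the 14 higher and the 14 lower genes described in the text from among those with the largest called differences, on the 3 biopsies, the 2 skins and the left-out Rosco biopsy. Higher genes are brighter and lower genes darker on each of the 3 biopsies than on either skin, which the choice of genes without overlap fixed. CES1, KRT19 and SLC1A1 are bright in the left-out biopsy.

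Fat genes were lower as well. Of 8 tested members of the fat cell list 4 were called lower and 0 higher, against 6.64% of all targets called lower, and the median difference was -6.20. Of 6 members above background on all 5 arrays 3 were called. ADIPOQ, the fat hormone adiponectin, was -1.34, -3.65 and -3.03 in the 3 biopsies and 4.58 and 5.27 in the skins, a difference of -7.60 (SE 0.74, adjusted p = 0.0131). FFAR4, a receptor for long-chain fatty acids, was not above background on any biopsy and was at least 46.5-fold lower (adjusted p = 0.0049). PPARG, the master transcription factor of fat cells, differed by -4.88 and CD36, a fatty acid carrier, by -7.53. CD36 stood at 4.91 in the left-out biopsy, above both skins. PCK1, an enzyme of glycerol and glucose synthesis, differed by -8.95 without a call (SE 2.40, adjusted p = 0.0633). Its levels were -1.71, -8.10 and -6.70 in the biopsies and 6.26 and 0.63 in the skins, wide in both groups. The MalcolmX biopsy was the highest of the 3 for ADIPOQ, CD36, PPARG and PCK1. Of the 4 calls, 4 held without the MalcolmX biopsy, 3 without the Dog Y biopsy, and 2 when the left-out biopsy was added.

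Skeletal muscle genes were low in all 3 biopsies and very uneven between the skins. Of 14 tested members, 8 were called lower and 1 higher (6.64% and 6.09% of all targets), with a median difference of -5.84. Of 5 members above background on all 5 arrays 4 were called. MYH2, a fast muscle myosin, was -7.39, -7.34 and -8.20 in the biopsies, 7.25 in the MalcolmX skin and 2.16 in the Rosco skin. It was at least 1515-fold lower in the biopsies (adjusted p = 0.0168). CA3, a carbonic anhydrase of muscle and fat, was -3.28 in the MalcolmX biopsy, -8.27 and -7.99 in those of Jake and Dog Y, and 6.48 and 6.62 in the skins (difference -13.06, SE 1.55, adjusted p = 0.0176). MYL2, a myosin light chain of slow and heart muscle, was at least 108-fold lower (adjusted p = 0.0394). The median level of the list was 3.33 in the MalcolmX skin and -1.41 in the Rosco skin, so the amount of muscle RNA differed between the controls themselves. TPM3, a tropomyosin that non-muscle cells also make, was the member called higher, by 1.98 (SE 0.32, adjusted p = 0.0269). Of the 9 calls, 5 held without the MalcolmX biopsy, 4 without the Dog Y biopsy, 1 with normexp, and 1 with the left-out biopsy added.

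Connective tissue and vessel genes differed less. In the fibroblast and matrix list 4 of 20 tested members were called lower and 0 higher (median difference -1.44), against 6.64% of all targets called lower. Of 18 members above background on all 5 arrays 3 were called. DPT, a protein of the dermal matrix, was 2.01, -0.04 and 0.53 in the biopsies and 5.13 and 6.44 in the skins, a difference of -4.95 (SE 0.74, adjusted p = 0.0235). BMP4, a growth factor of the bone morphogenetic family, differed by -4.39, and the metalloproteinase inhibitors TIMP2 and TIMP3 by -3.17 and -3.12. DCN, the collagen-binding proteoglycan decorin, was 3.12 and 3.71 in the MalcolmX and Jake biopsies but -1.65 in the Dog Y biopsy, against 6.34 and 7.53 in the skins, and was not called (adjusted p = 0.0882). Of the 4 matrix calls 2 held without the MalcolmX biopsy and 1 without the Dog Y biopsy. The median difference of the list was -0.70 without the Rosco skin and -2.25 without the MalcolmX skin. Among 18 vessel genes 3 were called lower: ANGPT1, a vessel-stabilising ligand, at least 9.38-fold, PDPN, a marker of lymphatic vessels and nodal fibroblasts, by -4.15, and EDN1, the vasoconstrictor endothelin, by -3.58. All 3 passed the filter through the skins, and of 14 vessel genes above background on all 5 arrays 0 were called. Of these 3 calls 1 held without the MalcolmX biopsy and 2 without the Dog Y biopsy.

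Markers of pigment cells, mast cells, red cells and platelets gave 3 called members in 22 tested, near the 12.7% of all targets. MITF, the transcription factor of melanocytes, was called lower (-3.66), as was CA2, a carbonic anhydrase of red cells and gland ducts (-2.96). RAB27A, a vesicle protein that lymphocytes also use, was higher by 1.88. None of the 5 tested mast cell genes was called, and KIT, the stem cell factor receptor, stood at -4.07, -5.19 and -5.78 in the biopsies and at -3.80 and -3.94 in the skins.

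Several metabolic enzymes and carriers of skin were among the lowest genes. CES1, a carboxylesterase that cleaves ester drugs and lipids, was -7.73, -7.39 and -8.10 in the biopsies, not above background, and 5.26 and 7.35 in the skins, at least 4585-fold lower (adjusted p = 0.0049). In the left-out biopsy CES1 stood at 6.03, between the 2 skins, and with that biopsy added the call was lost (adjusted p = 0.330). GATM, the first enzyme of creatine synthesis, was at least 138-fold lower (adjusted p = 0.0162), and SLC1A1, a glutamate carrier, at least 45.1-fold lower (adjusted p = 0.0218), though at 3.64 in the left-out biopsy. GPX3, a secreted glutathione peroxidase, differed by -5.81 (SE 0.44, adjusted p = 0.0083) and was among the calls that held with all 4 biopsies (adjusted p = 0.0467). GATM and GPX3 were the 2 called members among 11 tested redox and glutathione genes, against 6.64% of all targets called lower. The median difference of that list was -0.06, and 5 of the 11 lay above 0. H19, an imprinted noncoding RNA of growing muscle and fetal tissue, was -5.03, -6.29 and -7.69 in the biopsies and 4.06 and -0.95 in the MalcolmX and Rosco skins (difference -7.89, SE 1.57, adjusted p = 0.0368).

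In the list of steroid, retinoid and drug metabolism 4 of 20 members above background on all 5 arrays were called. Among all 22 tested members 5 were called lower and 1 higher, against 6.64% and 6.09% of all targets. The lower ones beside CES1 were CYP1A2, SULT1A1, SULT1B1 and GSTP1, oxidising, sulphating and glutathione-coupling enzymes, with differences from -3.98 to -2.27. GSTA4, a glutathione transferase for lipid peroxidation products, was higher by 1.59 (SE 0.34, adjusted p = 0.0412). Of the 6 calls, 2 held without the MalcolmX biopsy and 2 without the Dog Y biopsy. The small heat shock proteins HSPB1 and HSPB8, abundant in muscle and keratinocytes, differed by -4.87 (SE 0.47) and -3.64 (SE 0.45). They were the 2 called members among 7 tested heat shock and chaperone genes, against 6.64% of all targets called lower. The median difference of that list was 0.57, and 4 of the 7 lay above 0.

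Pumps that export drugs from cells are a known route to drug resistance. ABCB1, the efflux pump P-glycoprotein, was -1.75, -2.03 and -3.31 in the biopsies of MalcolmX, Jake and Dog Y, -2.41 in the MalcolmX skin and -4.31 in the Rosco skin. The groups overlapped, and the difference of 1.00 was not called (SE 0.75, adjusted p = 0.369). ABCC1, another efflux pump, was 0.10, 0.76 and 0.58 in the biopsies and -0.87 and -0.11 in the skins, a difference of 0.97 (SE 0.40, adjusted p = 0.145). ABCC5, an exporter of nucleotide analogues, differed by -2.58 without a call (adjusted p = 0.102). Among 6 tested drug transport genes 1 was called, against 12.7% of all targets. That was ABCB11, the bile salt pump, at least 22.4-fold lower and not above background on any biopsy. It passed the filter through the skins, and of the 5 genes above background on all 5 arrays 0 were called. Since no sensitive tumour enters this comparison, these values set tumour against skin and not resistant against sensitive tumour.

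Of the gene lists, that of antigen presentation held the most members called higher. Of 19 tested members 12 were called higher and 0 lower, against 6.09% of all tested targets, and the median difference was 2.29. DLA-DRA, the alpha chain of the class II molecule DR, was 5.57, 6.17 and 6.15 in the biopsies and 3.06 and 2.85 in the skins, a difference of 3.01 (SE 0.35, adjusted p = 0.0169). DLA-DQB1, the beta chain of DQ, differed by 3.04 (SE 0.44, adjusted p = 0.0221). The chaperones that load class II molecules, DLA-DMA and DLA-DMB, were higher by 2.99 and 3.26. DLA-DOB, which restrains this loading and is typical of B cells, was -1.27, 1.08 and -0.02 in the biopsies and -3.53 and -4.54 in the skins (difference 3.97, SE 0.75, adjusted p = 0.0343). CTSS, the protease that trims the class II invariant chain, was higher by 2.29.

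The class I pathway was higher in the same biopsies. PSMB8, a subunit of the immunoproteasome that cuts peptides, was 3.50, 4.02 and 4.45 in the biopsies and 1.55 and -0.68 in the skins, a difference of 3.55 (SE 0.72, adjusted p = 0.0375). TAP1 and TAP2, the peptide transporter, were higher by 2.78 and 1.87, and TAPBP, which bridges it to class I molecules, by 2.18. The class I heavy chains DLA88 and DLA-64 were higher by 2.20 and 2.06. These chains belong to a family of similar sequences, so 1 probe may read more than 1 of them. Of the 12 calls, 5 held without the MalcolmX biopsy, 2 without the Dog Y biopsy, and 0 with the left-out biopsy added or with normexp. In the left-out biopsy 17 of the 19 members lay below all 3 biopsies.

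Interferon-induced genes were also higher. Of 9 tested members 8 were called higher and 0 lower, against 6.09% of all targets called higher, with a median difference of 3.34. These genes are switched on by interferons and act against viruses inside the cell. MX1, a dynamin-like GTPase that blocks viruses, was 4.33, 4.81 and 5.94 in the biopsies and 2.07 and 0.43 in the skins, a difference of 3.78 (SE 0.70, adjusted p = 0.0327). OAS1, OAS2, OAS3 and OASL, enzymes of the oligoadenylate family that sense double-stranded RNA, were higher by 3.34, 2.46, 3.14 and 3.72. TRIM34, a ubiquitin ligase, was at least 7.68-fold higher. EIF2AK2, the kinase PKR that halts translation, was higher by 1.84. CXCL10, an interferon-induced chemokine that attracts T cells, was 0.01, 0.79 and -0.99 in the biopsies and -4.27 and -3.92 in the skins, a difference of 4.03 (SE 0.57, adjusted p = 0.0218). OAS3 had the weakest of these calls (adjusted p = 0.0499). Of 7 members above background on all 5 arrays 6 were called. In the left-out biopsy all 9 tested members lay above the skin mean, by a median of 0.46. Of the 8 calls, 3 held without the MalcolmX biopsy, 1 without the Dog Y biopsy and 0 with the left-out biopsy added. In the left-out biopsy all 9 members lay below the 3 biopsies. With normexp 0 held.

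Genes of the CD40 and NF-kB axis, the survival route of B cells, gave 3 calls higher and 0 lower among 9 tested. Over all targets 6.09% were called higher. The marker CD40 is among the 3, and 0 of the 3 calls held with normexp or with the left-out biopsy added. BIRC3, an inhibitor of apoptosis that NF-kB induces, was 1.56, 2.62 and 2.30 in the biopsies and -1.46 and -3.75 in the skins, a difference of 4.76 (SE 0.75, adjusted p = 0.0255). CD40 differed by 4.12 (SE 0.92, adjusted p = 0.0451); as a marker of the comparison it is no independent evidence. TRAF5, an adaptor of CD40, was higher by 2.47 (SE 0.55, adjusted p = 0.0443). LTB, the B cell cytokine lymphotoxin beta, was 5.52, 6.08 and 6.17 in the biopsies, 3.11 in the MalcolmX skin and -2.65 in the Rosco skin. Its groups did not overlap, yet the gap between the skins kept it from a call (difference 5.70, SE 1.60, adjusted p = 0.0692). CD40LG, the T cell ligand of CD40, differed by 2.67 without a call (adjusted p = 0.0747). Of the 3 calls 2 held without the MalcolmX biopsy and 0 without the Dog Y biopsy. MS4A1, CD40 and LTB were all higher in the MalcolmX skin than in the Rosco skin, by more than the range among the 3 biopsies.

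Genes of other immune cells gave calls in one direction beside many members without a call. Of 9 tested T and NK cell genes 5 were called higher and 0 lower (median difference 2.67), against 6.09% of all targets called higher. Some passed the filter only through the biopsies, and of 6 members above background on all 5 arrays 2 were called. With normexp, or with the left-out biopsy added, 0 of the 5 calls held. FASLG, the death ligand of cytotoxic cells, was -1.75, -1.66 and -2.74 in the biopsies and -5.52 and -8.11 in the skins, a difference of 4.76 (SE 0.83, adjusted p = 0.0302). SLAMF1, an adhesion receptor of activated lymphocytes, was at least 5.70-fold higher, and IL2RA, the alpha chain of the interleukin 2 receptor, at least 6.55-fold. CCL5, a chemokine of T cells, and CD4, the coreceptor of helper T cells, were higher by 2.82 and 1.76. Of these 5 calls, 0 held without the MalcolmX biopsy and 1 without the Dog Y biopsy.

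Of 13 macrophage and dendritic cell genes 4 were called higher and 0 lower, against 6.09% of all targets called higher. CYBB and CYBA, subunits of the NADPH oxidase of phagocytes and B cells, differed by 3.29 and 2.58, and CTSS was called too. CD86, a ligand that costimulates T cells, was 2.32, 1.46 and 0.75 in the biopsies and -1.94 and -0.18 in the skins and was not called (adjusted p = 0.0660). Of the 4 calls 3 held without the MalcolmX biopsy and 0 without the Dog Y biopsy. Neutrophil genes beside CYBB gave no call among 6 tested. The share of tumour cells and of other immune cells in these calls was not tested.

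Chemokines and receptors for microbial products were called in part. Of 21 tested chemokine genes 4 were called higher and 0 lower, against 6.09% of all targets called higher, and 7 of the 21 lay below 0. Of 15 chemokine genes above background on all 5 arrays 3 were called. CCR3, the eotaxin receptor, was -3.37, -2.87 and -3.29 in the biopsies and -6.55 and -7.87 in the skins, above background on neither skin, at least 6.83-fold higher (adjusted p = 0.0180). CCL19, which guides T cells and dendritic cells into nodes, was 2.34, 1.45 and 0.02 in the biopsies and -3.94 and -1.24 in the skins without a call (adjusted p = 0.0609). Of the 4 chemokine calls 1 held without the MalcolmX biopsy and 3 without the Dog Y biopsy. Of 8 tested innate receptor genes 3 were called higher. TLR1, a sensor of bacterial lipopeptides, was 2.08, 2.78 and 2.81 in the biopsies and -0.41 and -2.82 in the skins, a difference of 4.17 (SE 0.75, adjusted p = 0.0317). TLR9, the sensor of CpG DNA in B cells, was higher by 3.23 and the cytokine IL18 by 2.44. HTR1D, a serotonin receptor, was the 1 gene outside all lists among the 15 highest (difference 3.64, SE 0.85, adjusted p = 0.0492).

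Of 10 tested genes of cell division 5 were called higher and 0 lower, against 6.09% of all targets called higher, with a median difference of 1.89. ASPM, a spindle pole protein of mitosis, was 0.47, 0.23 and 0.78 in the biopsies and -2.74 and -2.06 in the skins, a difference of 2.89 (SE 0.38, adjusted p = 0.0197). MYC, the growth transcription factor, differed by 2.08 (SE 0.32, adjusted p = 0.0247). TYMS, the thymidylate synthase that feeds DNA synthesis, was 4.23, 4.08 and 4.79 in the biopsies and 2.68 and 2.87 in the skins. Of the 5 calls, 2 held without the MalcolmX biopsy and 0 without the Dog Y biopsy.

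The apoptosis and p53 list gave calls both ways, 6 higher and 1 lower of 20 tested, against 6.09% and 6.64% of all targets. Its median difference was 0.51, near that of all targets. BAX and BAK1, which open the mitochondrial membrane, were higher by 2.23 and 2.27. CASP8, the initiator caspase of death receptors, was 0.02, 0.64 and 0.93 in the biopsies and -2.21 and -2.49 in the skins (difference 2.88, SE 0.39, adjusted p = 0.0209), and PMAIP1, a BH3-only activator, differed by 3.16. So death effectors (FASLG, CASP8, BAX, BAK1, PMAIP1) and the inhibitor BIRC3 were higher in the same arrays. CDKN2B, a brake on the cell cycle, was called lower (-3.21). Of the 7 calls 3 held without the MalcolmX biopsy and 0 without the Dog Y biopsy.

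All 18 tested ribosomal protein genes lay above 0 and none was called. Their median difference was 0.50, against 0.32 for all targets. Of 6 glycolysis genes only LDHB, the lactate dehydrogenase subunit B, was called (1.84, SE 0.43, adjusted p = 0.0492), against 12.7% of all targets. Of 9 complement and coagulation genes none was called.

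**Figure D4:**
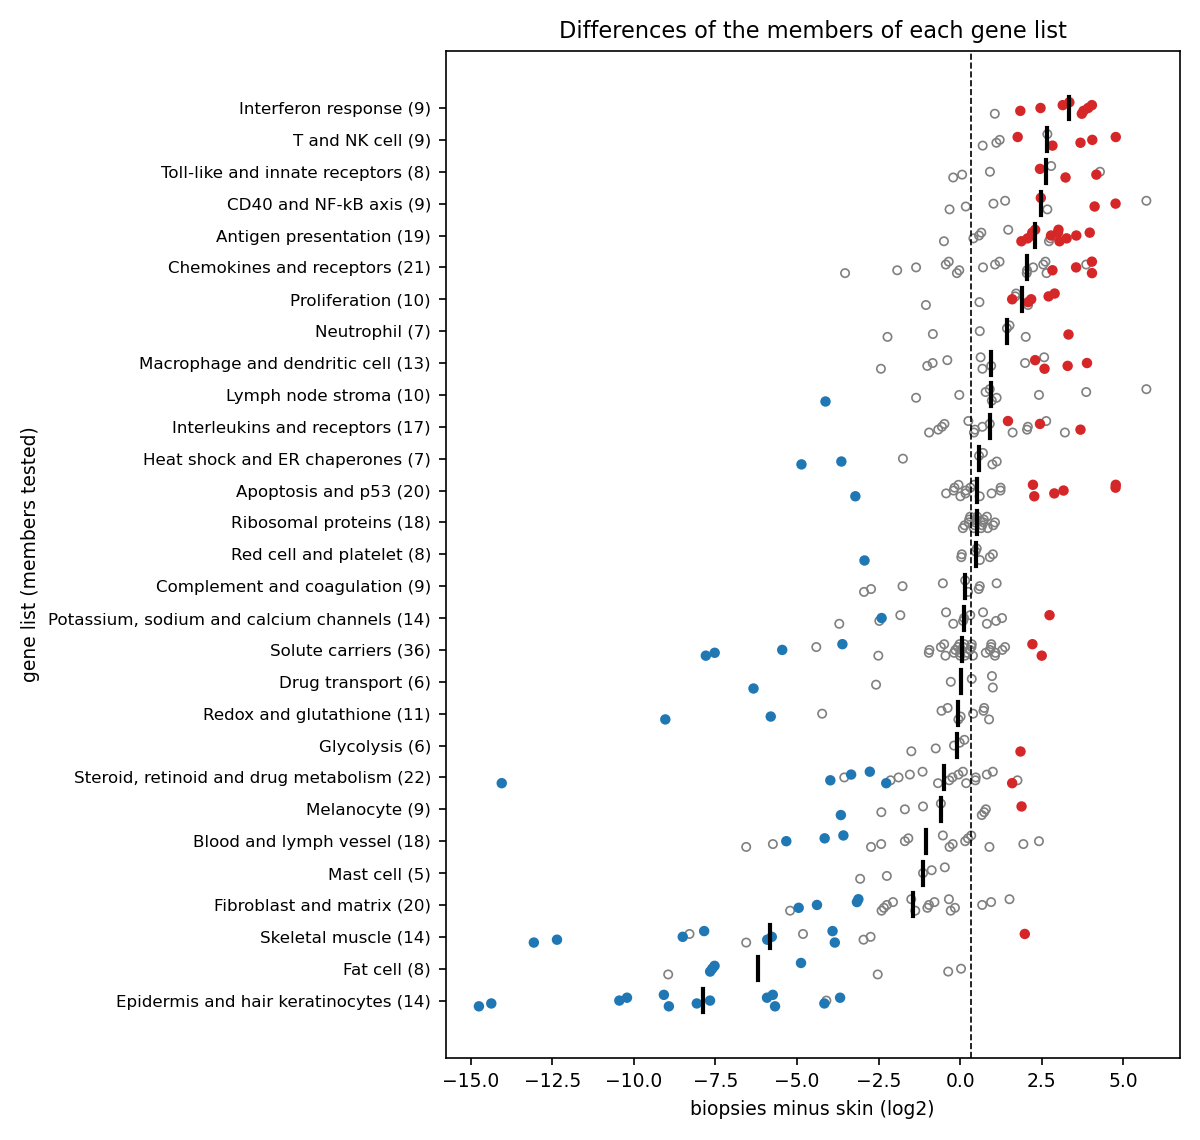
Difference between the 3 biopsies and the 2 skins (log2) for each tested member of the gene lists with at least 5 tested members. Filled points passed the limma threshold (red higher, blue lower), open points did not, black bars are list medians, and the dashed line is the median of all targets at 0.32. The interferon list has the highest median, 3.34, and the keratinocyte list the lowest, -7.87.

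The other 9 arrays of the series, which the choice of members did not use, give levels of the same genes. They hold tumour aspirates, a post-mortem tumour and a sensitive biopsy, most of them from Rosco. By the labels, the MalcolmX aspirate and the Rosco remission and relapse aspirates were taken after metformin treatment. The Rosco aspirate after failed chemotherapy was taken before metformin. KRT1 ran there from -8.67 to -6.28 with a median of -7.43, below both skins on every array. CD40 had a median of 4.27 and a lowest value of -1.04, and MX1 had a median of 4.99 with a lowest value of 1.59. CES1 ran from -7.76 to 5.75, from within the range of the 3 biopsies to within that of the skins. KRT19 ran from -8.41 to 5.19, from below the 3 biopsies to above the skins.

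The 3 biopsies also differed among themselves. Over the 1069 tested genes with a symbol, the median range between the highest and the lowest biopsy was 0.835 on the log2 scale. The range exceeded 1 for 434 genes and 3 for 90, while the median gap between the 2 skins was 0.661. With 1 array per dog, variation between dogs, biopsy sites and arrays cannot be told apart.

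The 10 genes with the widest range were split in different ways. The uncharacterised LOC478001 stood at 1.15 in the MalcolmX biopsy and at -7.95 and -7.73 in the Jake and Dog Y biopsies. TFAP2B, a transcription factor of neural crest and epithelium, was low only in the Jake biopsy, at -8.20 against -1.23 and 0.54. MMP9, a gelatinase of neutrophils and macrophages, was 2.03 in the Jake biopsy, -1.16 in the MalcolmX biopsy and -5.02 in the Dog Y biopsy. CD1A8, a lipid-presenting molecule of dendritic cells, was -7.03, -0.90 and -1.87 in the biopsies of MalcolmX, Jake and Dog Y. CTLA4, the inhibitory receptor of T cells, was -2.82 and -2.96 in the MalcolmX and Dog Y biopsies and -8.28 in the Jake biopsy.

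The Dog Y biopsy stood lowest for some genes made by stromal cells, though not for DPT. KITLG, the ligand of KIT made by stromal and epithelial cells, was -7.31 there and -1.78 and -2.71 in the MalcolmX and Jake biopsies. TMEM47, a junction protein, was -5.25 against 0.69 and -1.07. The median level of the fibroblast and matrix list was -1.75 in the Dog Y biopsy and 0.36 and 0.41 in those of MalcolmX and Jake, and that of the vessel list was -4.49 against 0.02 and -1.51. RHPN2, a scaffold of the actin skeleton, went the other way, with 2.64 in the Dog Y biopsy against 0.33 and -3.45. IFNK, an interferon of keratinocytes, was -2.30 in the Dog Y biopsy and -6.54 and -8.16 in the others, and PCK1 was the remaining gene of the 10.

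**Figure D5:**
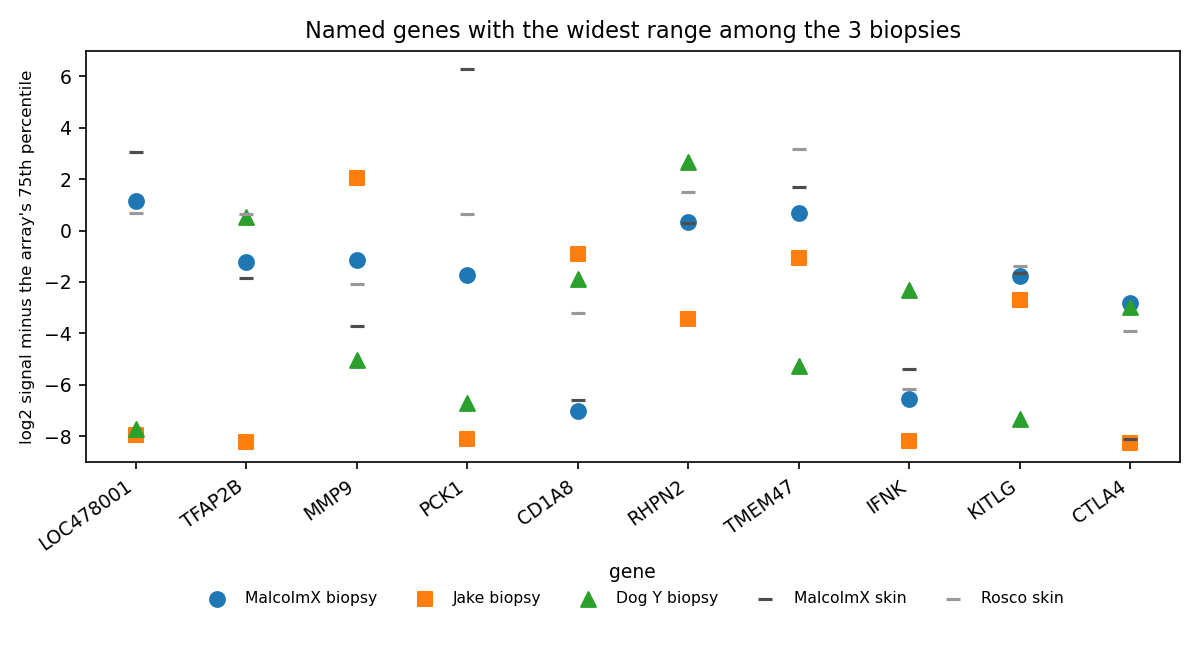
Levels (log2 signal minus the 75th percentile of the array) of the 10 named genes with the widest range among the 3 biopsies, with the 2 skins as dashes. The biopsy that stands apart differs from gene to gene, as with LOC478001 at 1.15 in the MalcolmX biopsy only.

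Most targets with a difference carried only an identifier, so the extremes of the comparison were partly unnamed. The highest was the Ensembl transcript ENSCAFT00000038842, at 4.89, 4.12 and 3.40 in the biopsies, -1.67 in the MalcolmX skin and -8.07 in the Rosco skin, a difference of 9.0 (SE 1.81, adjusted p = 0.0372). Like MS4A1, it was dim in the left-out biopsy (-4.32) and far apart between the skins. ENSCAFT00000038739 stood at 2.47, 5.48 and 1.65 in the biopsies and at -3.00 and -3.49 in the skins (difference 6.44, SE 1.14, adjusted p = 0.0306), and it reached 6.87 in the left-out biopsy. Among lower targets the largest difference was that of a named gene, KRT1 (-14.75). Among lower targets without a symbol it was -13.48, for a target with only a RefSeq identifier, at least 3802-fold lower (limma adjusted p = 0.0075). Its call held with all 4 biopsies (adjusted p = 0.0074). ENSCAFT00000000182 was at least 1551-fold lower, with 8.18 in the MalcolmX skin and 1.31 in the Rosco skin (adjusted p = 0.0238). The tables used here pair none of these identifiers with a symbol.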

How the data were processed

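RNA of 15 canine samples was labelled with Cy3 and read on 1-colour Agilent arrays. Labelling followed a low-input amplification protocol on RNA of high integrity, per the labels' protocols. The authors' intensities were made with Agilent Feature Extraction 11.0.1.1, per the file headers, whose settings remove local background and spatial trends and apply no scaling between arrays. The deposited columns also hold flags of 0 or 1 for signal well above background, saturation and outlying pixels. The deposited series table holds linear intensity, median signal minus background median, equal to the scanner values within 0.01 in 678300 of 678300 cells.

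The log2 of the processed signal minus the 75th percentile of each array was used. Of 43603 probes, 2186 (5.01%) had a symbol through RefSeq identifiers (1357 symbols) and 19130 carried Ensembl identifiers. This gave 36604 targets, each read by its probe with the highest mean over all arrays. A target entered the test if all arrays of 1 group or the other had it well above background. The 3 biopsies and 2 skins were compared with limma 3.58.1 (R 4.3.3) by a two-sided test, with p-values adjusted by the Benjamini-Hochberg method over every tested target at a threshold of 0.05; the errors are standard errors of that model. The code of the model was run on simulated data with large differences. The noise there was smaller than the typical spread among the biopsies, equal for all genes and without a gap between the skins. That run therefore says nothing about the precision of the calls here. Between 66.8% and 71.7% of probes were well above background on the 5 arrays, 0 spots were saturated, and the number of arrays limits the precision. A fold is "at least" where the dimmer group had no array well above background.

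The members and the gene lists were chosen with earlier results of these data known. Leaving out a biopsy on its measured levels makes p-values too small for genes that follow MS4A1 or gland genes. The named genes are the 15 higher and 15 lower genes with the largest difference among called genes whose groups do not overlap, the 4 members of each list with the largest absolute difference, 3 markers, the 10 genes of widest range among the biopsies, and up to 2 identifiers in each direction. Other members of the lists, mostly called ones, were added after their values were seen, and some genes that the rule took are not described. Alternatives were background correction, scaling, the filter, probe averaging, slide, dog, the left-out biopsy, each array left out, and the deposited table. A search of promoters for motifs was planned and not run, since no promoter sequences were used here.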

Additional observations from a re-analysis of the deposited data

Results flagged for a closer look

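Among the 4 biopsies labelled resistant, 1 array stood apart from the other 3 for 24 of the 119 genes named in the text, by a gap that, as a share of the whole range, passed Dixon's critical value for 4 samples. In 23 of the 24 it was the left-out Rosco biopsy, which was set aside for the low MS4A1 among them (-7.16), and most of the genes were named for differences found without it, so the choice fixed this pattern and the chance rate of such gaps, about 1 in 20 groups, does not apply. It was low for the lymphoid genes CD40 (-0.43) and LTB (-2.53), for TLR1 (-1.68) and CCR3 (-7.11), and for the antigen presentation genes DLA-DRA (2.59), TAP1 (3.16), TAP2 (0.33) and CTSS (2.00). It was also low for TRIM34 (-6.91), CASP8 (-4.52), MYC (-0.58), IL2RG (-4.29) and SLC23A1 (-3.70). It was high for the epithelial genes KRT14 (3.58), KRT15 (2.12), KRT19 (5.02), DSG3 (-2.07) and PKP1 (-3.91). CES1 (6.03), SLC1A1 (3.64), CA2 (2.30) and the muscle gene MYH2 (-1.92) were high there as well. The remaining gene was SPINK5, highest in the MalcolmX biopsy (-2.75). The content of the left-out biopsy that goes with these levels was not tested.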

How the results depend on the processing

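The number of called targets moved by more than 1.5 times under several settings. Normexp background correction left 132 (21 higher, 111 lower), no filter on dim targets 1660 (658 higher, 1002 lower), the slide of Jake, Dog Y and the MalcolmX skin alone 1071 (67 higher, 1004 lower), and all 4 biopsies 103 (2 higher, 101 lower). Slide as a block left 910 higher targets, and requiring signal above background on all 5 arrays, which tests fewer dim targets, 862 lower ones. With 1 array left out the calls ran from 0 to 3692, the higher ones from 0 to 1296 and the lower ones from 0 to 2396. All counts of 0 came without the Jake biopsy. Quantile and median scaling, the mean of a target's probes and the deposited table gave 2873 to 3629 calls; other causes were not tested. Of the 3112 calls, 131 were shared with normexp and 2908 with quantile scaling, and normexp turned the direction of 64.

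Directions of the tested named genes held under every setting with a test except for 4 genes without a call. ABCB1 was -0.26 within the first slide, and RHPN2 was 0.16 with all 4 biopsies. With 1 array left out MMP9 ran from -0.20 to 3.32, TFAP2B from -4.11 to 0.26 and RHPN2 from -2.45 to 0.59. Without a test, LOC478001 turned to 0.47 and CD38 to 0.58 within the other slide, and TFAP2B to 0.62 and RHPN2 to 0.03 in the MalcolmX pair. Dog as a random block could not be fitted, since only MalcolmX gave a pair. In the pair 67 of 112 tested named genes moved by less than 1 SD of a group. Only 5 arrays, each of a different dog and tissue pairing, set the precision, and dim probes give bounds only.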

Other observations

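Solute carriers, interleukins and nodal stroma have not been described above. Of 36 tested solute carriers 2 were called higher and 4 lower, a share near the 12.7% of all targets. SLC6A12, a carrier of betaine and GABA, was -0.92, -1.83 and -0.98 in the biopsies of MalcolmX, Jake and Dog Y and -3.00 and -4.48 in the MalcolmX and Rosco skins, a difference of 2.5 (SE 0.57, adjusted p = 0.0463). SLC23A1, a carrier of vitamin C, was higher by 2.21 (SE 0.36, adjusted p = 0.0266). SLC1A3, a glutamate carrier, was lower and uneven among the biopsies, at -2.70, -5.26 and -7.92 against 2.20 and 2.26 in the skins. The peptide carrier SLC15A1 and the anion exchanger SLC4A3 were lower too, at least 10.4-fold and at least 5.60-fold, and SLC1A1 was the fourth. Of these 6 calls 3 held without the MalcolmX biopsy, 0 without the Jake biopsy and 2 without the Dog Y biopsy.

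Of 17 tested interleukin and receptor genes 3 were called higher and 0 lower, against 6.09% of all targets called higher: IL2RA, IL18 and IL2RB, the beta chain of the interleukin 2 receptor (1.46, SE 0.31, adjusted p = 0.0413). Of the 3 probes of IL2RB 1 had the opposite sign, and the mean of its probes was not called (adjusted p = 0.254). IL2RG, the common gamma chain, was -0.09, -0.15 and 0.21 in the biopsies, -1.80 in the MalcolmX skin and -4.63 in the Rosco skin, without a call (adjusted p = 0.0590). None of the 3 interleukin calls held without any 1 of the 3 biopsies. Among 10 tested nodal stroma genes PDPN alone was called, against 12.7% of all targets. VCAM1, an adhesion molecule of vessels and nodal stroma, was 1.86, 1.30 and -0.90 in the biopsies and -1.35 and -1.96 in the skins, a difference of 2.41 without a call (adjusted p = 0.111).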
